A study of Mus musculus with 56 samples.

Results

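Broad acetylated domains of mouse liver were the H3K9Ac and H3K27Ac regions of 15 kb or more, and they numbered 979 of the 37200 regions collected from hypothyroid and hyperthyroid WT mice. They were chosen by length alone, as the end minus the start of each deposited mm9 interval, so that their size is a description and not a finding. The interval list holds no read numbers, and the acetylation of a domain in a given mouse or condition was therefore not analysed here. The domains were set beside the 36221 shorter regions, and genes with a start inside them were followed in liver RNA-seq of 12 libraries. Hypothyroid WT mice (4 libraries) were males on a low iodine diet with propylthiouracil (PTU), an inhibitor of thyroid hormone synthesis. Hyperthyroid WT mice (4 libraries) received the same diet together with injections of triiodothyronine (T3), the active thyroid hormone. Hypothyroid L-NCOR1ΔID mice (4 libraries) received PTU and carried in the liver a mutant corepressor NCOR1 without the domains that bind the thyroid hormone receptor (TR), on a mixed C57BL/6;129S background. The paper does not say on which background the WT mice of the RNA libraries were. Over all mice it lists, mean age was higher for hypothyroid WT than for hypothyroid L-NCOR1ΔID mice. Differences of background or age cannot be told apart from the mutation here. No hyperthyroid L-NCOR1ΔID RNA library was used here, and the T3 and L-NCOR1ΔID comparisons share the 4 hypothyroid WT libraries. The methods of the study call the RNA samples biological replicates, whereas the labels number the libraries and name no animals, and p-values measure the spread between these libraries.

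Acetyl groups on lysines 9 and 27 of histone H3 mark promoters and enhancers in use, and most such marks cover a few nucleosomes around a start site or enhancer. Broad stretches of acetylation are known from genes that define a tissue, in liver those for plasma proteins, metabolic enzymes and hepatocyte transcription factors. In the standard model, the unliganded TR holds the NCoR complex with the deacetylase HDAC3 at DNA. Binding of T3 then exchanges it for coactivators with acetyltransferase activity. In hypothyroid liver, the study found HDAC3 at a minority of the TR-bound regions that gained acetylation with T3. It proposes that the model explains only part of the T3-regulated enhancers. TR together with its partner RXR binds DR4 elements, direct repeats of the hexamer AGGTCA with a spacing of 4 bases.

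Exact DR4 matches (AGGTCA, any 4 bases and AGGTCA again, searched on both strands) were found 14 times in the broad domains, each in a different domain (1.43% of domains). Matches in domains that hold the start of Ttpal, Arid5b, Abcg5, Ubr2, Paqr7 or Sds and Sdsl are shown. They are examples of domains with both a match and a protein-coding start, and a link between match and transcript level was not tested. Each is read from mm9 (NCBIM37) on the strand given, with the repeated hexamers in capitals.

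Ttpal domain, chr2:163424429-163424458, minus strand: gatcagaAGGTCAccaaAGGTCAgctttcc
Arid5b domain, chr10:67723061-67723090, plus strand: ttcccaaAGGTCAtaggAGGTCActtagag
Abcg5 domain, chr17:85085736-85085765, minus strand: ccctcagAGGTCAaaagAGGTCActgggtc
Ubr2 domain, chr17:47135966-47135995, plus strand: ggaccacAGGTCAcagcAGGTCAgattccg
Paqr7 domain, chr4:134041236-134041265, minus strand: gggataaAGGTCAggccAGGTCActcagat
Sds and Sdsl domain, chr5:120928583-120928612, minus strand: aggccagAGGTCAacatAGGTCAgtatctc

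These matches lay 2.05 kb (Sds) to 18.4 kb (Arid5b) from the nearest annotated protein-coding start, with 3.61 kb for Ttpal and 3.39 kb for Abcg5. Exact DR4 matches were not denser in broad domains (0.631 per Mb) than in the shorter regions (0.840 per Mb). With at least 11 of the 12 hexamer bases matched, the densities were 12.1 and 12.7 per Mb, and 227 broad domains (23.2%) and 3.98% of the shorter regions held such a match. A match is a string of letters and does not say that TR binds there.

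Motifs of other liver factors were counted in the same way. The CEBP palindrome TTGCGCAA had 1.26 matches per Mb in broad domains and 2.24 in shorter regions. For the FOXA core TGTTTAC, searched on both strands, the densities were 148 and 163 per Mb, and 92.3% of broad domains and 37.8% of shorter regions held at least 1 match. The DR1 repeat (AGGTCA, any base and AGGTCA again, both strands), bound by HNF4A and by PPARA with RXR, had 3.24 matches per Mb in broad domains and 2.92 in shorter regions. Base composition was alike, with a median GC of 46.4% in broad domains and 46.3% in shorter regions and 13.4 and 13 CpG per kb. Of the motifs named here, only DR1 was denser in broad domains than in shorter regions.

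The domains ranged from 15000 to 115861 bp with a median of 19622 bp, while the median shorter region was 2479 bp. A total of 522 were under 20 kb, 21 reached 50 kb, and all 979 together covered 22.2 Mb, which is 15.3% of all acetylated sequence and 0.836% of the genome. The length limit cuts a continuous distribution. The shortest domains were chr4:133107118-133122117 at 15000 bp, which holds the start of Nr0b2, a corepressor of bile acid synthesis genes, and domains of 15015 and 15018 bp on chromosome 6. The longest regions left out had 14993, 14990 and 14973 bp.

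**Figure D1:**
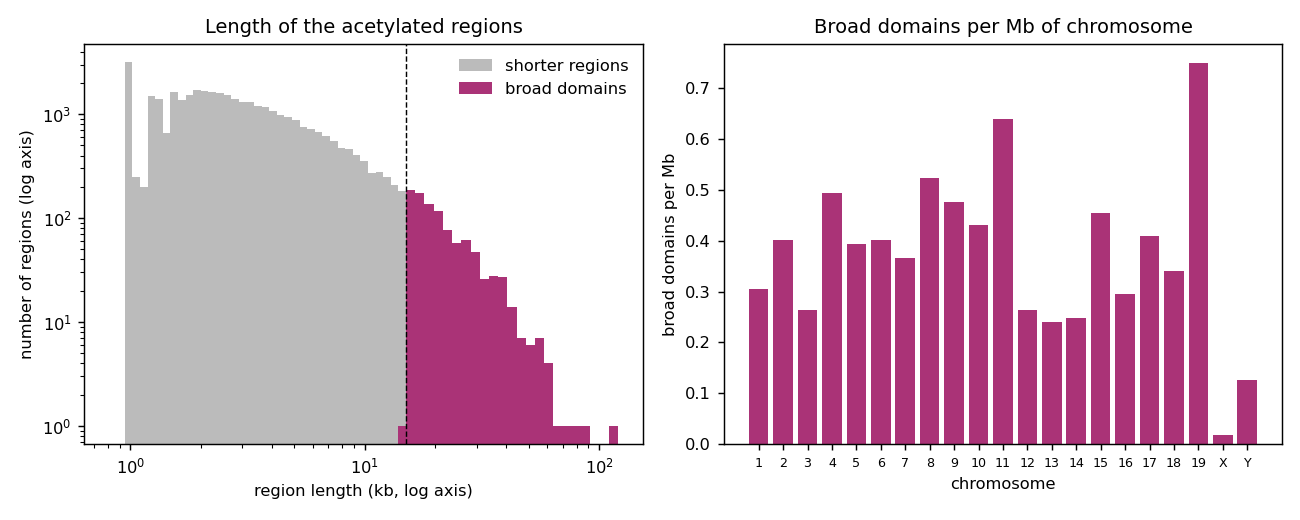
Left, number of acetylated regions by length in kb (both axes logarithmic), with the 15 kb limit as a dashed line; right, broad domains per Mb for each nuclear chromosome. The number of regions falls smoothly through the limit, and chromosome 19 (0.750 per Mb) and chromosome 11 (0.640 per Mb) stand highest while X (0.0180 per Mb) is lowest.

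The longest domain, chr15:58802417-58918277 (115.9 kb), covered most of Mtss1, which encodes a protein of the plasma membrane and actin cytoskeleton, from upstream of its start. It was followed by domains at Shb, an adaptor of tyrosine kinase receptors (chr4:45455874-45546477, 90.6 kb), at Sfi1 and Eif4enif1 (chr11:3022078-3105410, 83.3 kb) and at Zmiz1, a transcriptional coregulator (chr14:26275638-26348941, 73.3 kb). The urea cycle gene Ass1 lay in a domain of 66.7 kb, and the lipid exporter Abca1 started in a domain of 58.3 kb. All 3 fibrinogen chains (Fga, Fgb and Fgg) shared a domain of 58.4 kb with Plrg1, a splicing factor. The domain of 58.2 kb at Ttpal, a paralogue of the vitamin E transfer protein, also covered the 3′ part of the annotated gene Hnf4a, a master regulator of hepatocytes. The outermost annotated start of Hnf4a lay in a separate region of 2.69 kb. Each gene was placed by this outermost start, and which Hnf4a start is used in these livers was not tested. With any annotated transcript start counted, 119 further genes started in a broad domain. At Sfi1, 5 further starts are annotated as processed transcripts or pseudogenes, among them Pisd-ps1, and reads from such copies cannot be placed with certainty.

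Domains of 61.5 kb in Rxra, the receptor partner of TR, and of 60.9 kb in Rbm47, an RNA-binding protein, held no gene start. The domain in Rbm47 lay within the gene, and that in Rxra ran past the 3′ end of the gene. The domain in Rxra began 57 bp after the end of a domain of 37.4 kb that holds the Rxra start, the closest neighbours among all broad domains. At Igf1, the liver-derived growth factor, a domain of 27 kb at the start was followed by another of 56.8 kb inside the gene. Such neighbours are frequent, since 34.8% of broad domains and 17.6% of shorter regions had another region less than 2500 bp away. The number of domains of 15 kb or more rose to 1435 when regions this close were joined before the length was taken.

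**Figure D2:**
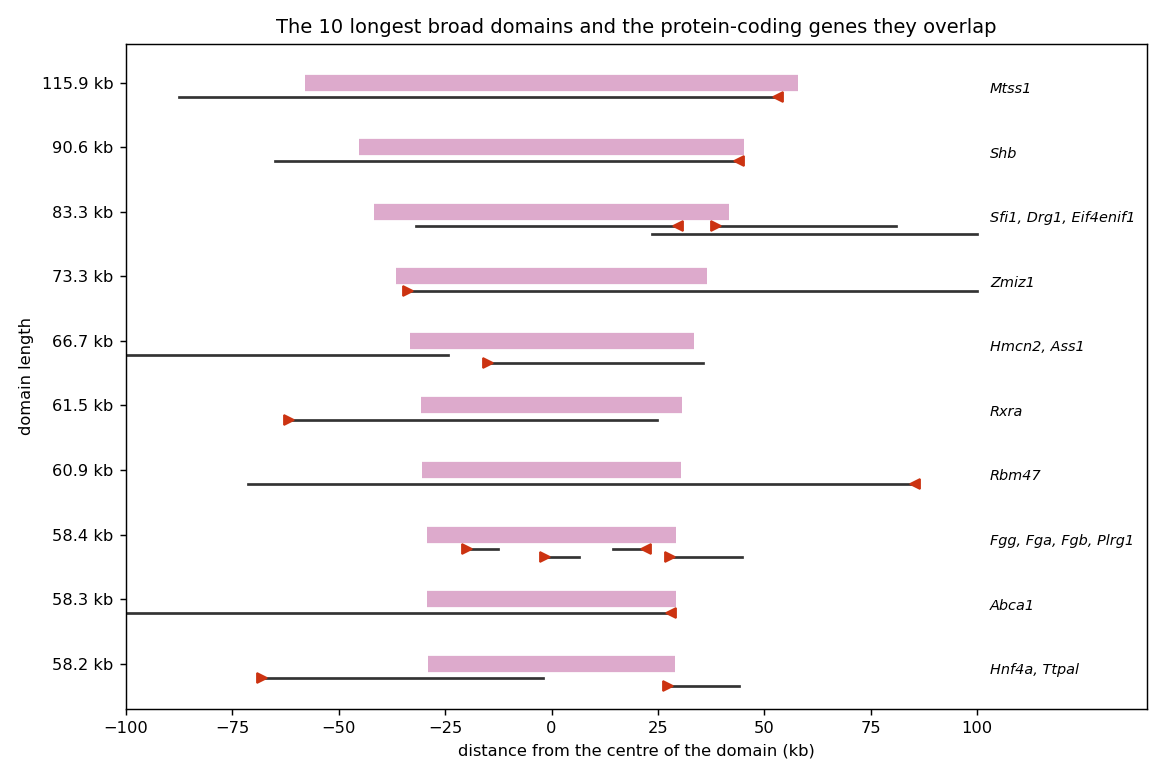
The 10 longest broad domains (pink bars), each drawn around its centre with distance in kb, and the protein-coding genes they overlap (black lines, cut at 100 kb; red arrowheads mark the annotated start and point in the direction of transcription). At Mtss1, Shb, Zmiz1 and Abca1 the start lies near an edge and the domain runs into the gene, whereas the domain in Rbm47 lies inside the gene body and that in Rxra covers the 3′ part of the gene and runs past its end.

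Broad domains were uneven over chromosomes. Chromosome 11 held 78, chromosome 4 held 77, chromosome 2 held 73 and chromosome 8 held 69, and per Mb chromosome 19 was highest (0.750) and chromosome 13 lowest among autosomes (0.241). As a share of each chromosome's own regions the range over autosomes was narrower, from 1.69% on chromosome 13 to 3.56% on chromosome 8. The X chromosome had 3 broad domains among 767 regions (0.391%), against 2.68% on autosomes. Male mice carry a single X, so that copy number and regulation cannot be told apart here. On Y, 2 of 28 regions were broad, and the domain of 55.4 kb there lay 297 kb from the nearest protein-coding start.

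Some domains lie in repeated sequence. In chr9:3013699-3038660, 88.9% of 30-base words occurred more than once within the domain, with 9 predicted protein-coding genes of the Gm series starting in it. The X domain chrX:166424009-166439588 had 36.8% repeated words. Only 10 of the 979 domains had 5% or more, and the part of read placement in them was not tested.

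Broad domains were found in neighbourhoods. With gaps of at most 100 kb, 366 domains (37.4%) fell into 163 chains of at least 2, and 3 chains held 5 domains. The chain of 188 kb on chromosome 2 began at Cebpb, a transcription factor of the acute-phase response, and its other 4 domains held noncoding starts or none. Another of 281 kb on chromosome 8 followed the carboxylesterase genes Ces1b, Ces1c, Ces1e, Ces1f and Ces1g, with 1 domain at each gene. The remaining chain ran over Ttc39c and Osbpl1a on chromosome 18. Broad domains also lay closer to the next acetylated region of any length (median gap 3.38 kb) than shorter regions did (6.99 kb).

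A gene start lay in 678 of the broad domains (69.3%) and in 29.3% of the shorter regions. Since longer intervals can hold more starts, the density was also taken, and broad domains held 37.2 protein-coding starts per Mb while shorter regions held 92.2. In the 495 domains with 1 protein-coding start, the domain reached a median of 4121 bp upstream and 15272 bp downstream of the start, and 82.2% were longer on the downstream side (79.1% of shorter regions). A median of 55.3% of the gene was covered, and 122 genes lay wholly inside their domain. At the other end, 257 domains lay wholly inside protein-coding genes and 85 touched none.

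Several domains enclosed gene clusters. The domain chr7:20248361-20291126 held the starts of Apoe, Apoc1, Apoc4, Apoc2 and Clptm1, of which the first 4 encode apolipoproteins. On chromosome 1, chr1:173139645-173173798 held Nr1i3, the xenobiotic receptor CAR, together with Apoa2, Tomm40l and Fcer1g, a subunit of Fc receptors of immune cells. A domain of 22.5 kb on chromosome 9 held 3 hyaluronidase genes (Hyal1, Hyal2 and Hyal3).

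Promoters of genes in broad domains were of both CpG-rich and CpG-poor kinds. In the 250 bases upstream of the annotated start, the median number of CpG was 12 for 769 protein-coding genes in broad domains, 15 for genes in shorter regions and 3 for genes in no region. At most 3 CpG were present in 19.9% of the promoters in broad domains and in 8.41% of those in shorter regions. Among genes in broad domains with a mean of 100 RPKM or more, 39.6% had at most 3 CpG, against 11.2% of those under 10 RPKM. The promoters of Mtss1 (longest domain), Alb (highest transcript level), Thrsp (a classic T3 target) and Nr1i3 (lower in both comparisons below) show the range, with 40, 3, 5 and 2 CpG. They are read from mm9 on the strand of the gene, and capitals mark CpG.

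Mtss1, chr15:58913582-58913831, minus strand: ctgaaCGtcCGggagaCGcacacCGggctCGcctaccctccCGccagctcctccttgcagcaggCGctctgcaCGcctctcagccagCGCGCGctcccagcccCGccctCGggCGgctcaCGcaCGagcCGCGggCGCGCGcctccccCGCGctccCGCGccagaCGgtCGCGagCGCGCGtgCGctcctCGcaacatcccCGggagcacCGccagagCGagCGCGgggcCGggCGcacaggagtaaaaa
Alb, chr5:90889665-90889914, plus strand: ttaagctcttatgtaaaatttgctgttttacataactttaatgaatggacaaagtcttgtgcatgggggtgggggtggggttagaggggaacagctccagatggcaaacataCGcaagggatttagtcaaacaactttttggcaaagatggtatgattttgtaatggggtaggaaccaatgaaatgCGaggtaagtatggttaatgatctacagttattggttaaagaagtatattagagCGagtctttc
Thrsp, chr7:104566241-104566490, minus strand: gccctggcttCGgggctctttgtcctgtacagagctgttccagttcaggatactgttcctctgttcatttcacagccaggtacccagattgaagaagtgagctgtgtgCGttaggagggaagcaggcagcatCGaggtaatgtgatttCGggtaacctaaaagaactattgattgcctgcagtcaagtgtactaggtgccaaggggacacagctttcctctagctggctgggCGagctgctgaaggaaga
Nr1i3, chr1:173143851-173144100, plus strand: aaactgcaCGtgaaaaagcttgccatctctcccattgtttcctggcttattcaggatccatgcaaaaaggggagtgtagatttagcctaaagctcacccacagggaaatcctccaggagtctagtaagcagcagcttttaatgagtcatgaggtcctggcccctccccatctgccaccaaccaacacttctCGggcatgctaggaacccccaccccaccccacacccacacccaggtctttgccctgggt

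Transcript levels were taken as read numbers scaled to transcript length and library size (RPKM), which compares genes per length. Of 21910 genes with a position, 822 (3.75%) started in a broad domain, 11461 in a shorter region and 9627 in none. The summed RPKM per library lay between 377335 and 412558, and the depth relative to hypothyroid WT replicate 1, read from the steps of low values, lay between 0.681 and 1.37. The 10 hepatocyte markers summed to 44448 to 56495 RPKM in hypothyroid WT and 36992 to 42222 RPKM in L-NCOR1ΔID libraries. In hyperthyroid WT libraries the sum was 21606 to 30326 RPKM, so that no groups overlapped. Most of this sum was Alb, with means of 31804 RPKM in hypothyroid and 14325 RPKM in hyperthyroid WT, whereas Apoa1 was at 4224 and 4661 RPKM. Of the 10 hepatocyte markers, 4 passed the T3 thresholds given below as lower and 1 as higher. Lymphocyte markers (1.84 to 4.35 and 4.46 to 7.13 RPKM) and endothelial markers (42.3 to 62.0 and 63.0 to 75.1 RPKM) were also higher in hyperthyroid than in hypothyroid WT libraries without overlap, while stellate cell and cholangiocyte markers overlapped. Kupffer cell markers were higher in hyperthyroid (209 to 318 RPKM) than in hypothyroid WT libraries (70.4 to 99.4 RPKM), with all 8 of the markers in the table past the T3 thresholds given below, and they were at 72.9 to 195 RPKM in L-NCOR1ΔID libraries. Of the lymphocyte and endothelial markers, 1 of 6 and 1 of 7 passed those thresholds. The part of these cell types in the differences below was not tested. In bulk liver, more cells of a type and more RNA per cell cannot be told apart.

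Genes starting in broad domains had a median of 22.8 RPKM in hypothyroid WT, where library medians lay between 20.8 and 23.5 RPKM. For genes starting in shorter regions the median was 3.996 RPKM (3.90 to 4.14). The gap between both sets of genes was thus larger than the spread between libraries in each group, with 27.7 and 4.83 RPKM in hyperthyroid WT and 22.5 and 4.18 RPKM in L-NCOR1ΔID. The level rose with length below the limit as well, from 0.321 RPKM for regions under 2 kb to 10.9 RPKM for regions of 8 to 15 kb in hypothyroid WT, and was 20.4 RPKM for 15 to 25 kb and 25 RPKM for 25 kb or more. Only 10 of the 822 genes stayed under 0.1 RPKM in all 12 libraries.

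**Figure D3:**
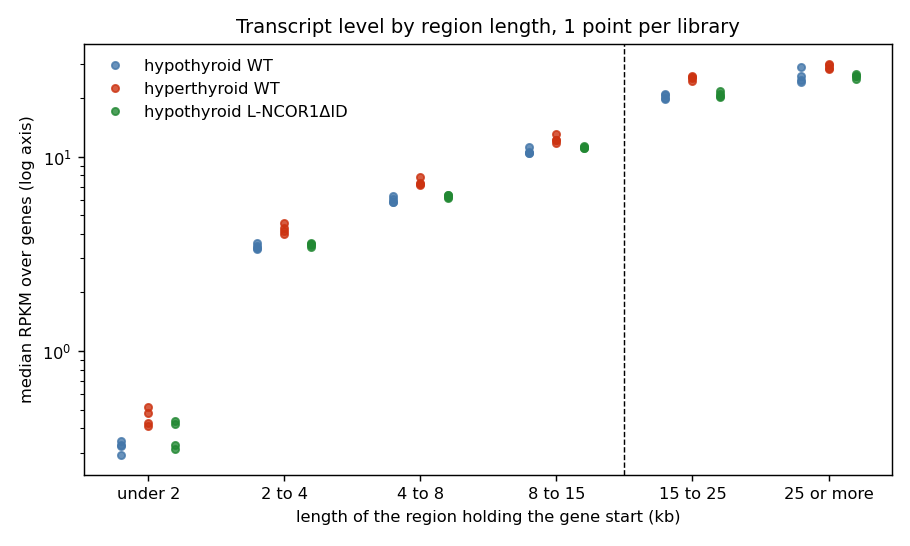
Median RPKM (logarithmic axis) over the genes whose start lies in a region, by length of that region in kb, with 1 point for each library and colours for the 3 groups; the dashed line marks the 15 kb limit. Medians in hypothyroid WT climb from 0.321 RPKM for regions under 2 kb to 25 RPKM for domains of 25 kb or more, without a step at the limit.

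The highest levels were those of plasma proteins. Of the 100 genes with the highest mean RPKM in the whole table, 64 started in a broad domain. Alb, the main protein of plasma, had 32424, 30152, 27356 and 37284 RPKM in the hypothyroid WT libraries. It was followed by Apoe (12396 ± 866 RPKM, SD, n = 4), Apoa2 (9397 ± 1529 RPKM) and the ethanol-oxidising cytochrome Cyp2e1 (5110 ± 577 RPKM). Trf (4950 ± 333 RPKM), Ttr (4411 ± 644 RPKM), Apoa1 (4224 ± 523 RPKM), Apoc1 (3927 ± 576 RPKM), Gc (3394 ± 265 RPKM) and Ahsg (2667 ± 187 RPKM), which carry iron, thyroid hormone, lipids, vitamin D and mineral, completed the 10 highest by the mean over all libraries. Together, genes starting in broad domains made up 45.0 to 48.5% of summed RPKM in hypothyroid WT, 43.0 to 46.1% in L-NCOR1ΔID and 35.5 to 39.0% in hyperthyroid WT libraries, which did not overlap with the others. Such a sum is weighted by its highest genes. The median of the broad-domain genes was not lower in hyperthyroid WT (27.7 RPKM) than in hypothyroid WT (22.8 RPKM).

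Within the 10 longest domains, length did not order the genes by level. Mtss1 in the longest domain had 55.2, 67.9, 68.0 and 60.4 RPKM in hypothyroid WT, and Shb in the next had 11.2, 13.7, 13.4 and 11.1 RPKM. Sfi1 (7.94 ± 1.45 RPKM), Eif4enif1 (6.56 ± 0.357 RPKM), Zmiz1 (5.77 ± 0.587 RPKM) and Ttpal (3.99 ± 0.782 RPKM) were lower still. By contrast, Ass1 had 484 ± 24.7 RPKM and Fgb 1355 ± 22.2 RPKM, so that the 10 longest domains spanned levels from a few to over 1000 RPKM.

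The lists differed in how many of their genes started in a broad domain, against 3.75% of all placed genes. The share was 21 of 30 (70.0%) for enzymes of glucose, amino acid and ketone metabolism, among them Gnmt, Hpd and Arg1. It was 21 of 32 (65.6%) for hepatocyte transcription factors, with Cebpa, Mlxipl, Xbp1 and Nr1i3 at the highest levels, and 24 of 44 (54.5%) for secreted plasma proteins. For growth hormone, insulin and IGF signalling it was 8 of 20 (40%), with Igfbp4, Igf1, Pik3r1, Trib1, Stat5a and Stat5b among them, and for the thyroid hormone axis and classic T3 targets 12 of 31 (38.7%). The 8 of 10 hepatocyte markers in broad domains overlap these lists.

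Other lists had smaller shares. Only ribosomal proteins and the markers of endothelial cells, stellate cells, cholangiocytes and lymphocytes lay under the 3.75% of all placed genes. The immediate early and stress genes had 6 of 27 (22.2%), including Zfp36l1, Zfp36, Nfkbia and Txnip, and the circadian clock 3 of 17 (Dbp, Per2 and Cry2). The Cyp2, Cyp3 and Cyp4 genes had 8 of 76 (10.5%), which included Cyp2e1, Cyp2a5, Cyp2f2 and Cyp2d10, and the NCoR complex, acetyltransferases and Mediator 2 of 20 (Sin3a among them). Of 79 ribosomal protein genes, 2 (Rpl18 and Rps16, 2.53%) started in a broad domain although 73 started in a shorter region. None of the markers of endothelial cells (7), stellate cells (7), cholangiocytes (6) or lymphocytes (6) started in a broad domain, whereas C1qa and C1qb did among 8 Kupffer cell markers. The receptor genes Thra and Thrb, Ncor1 and the T3 target Pdp2 also started in shorter regions (8.37, 5.82, 7.71 and 13.4 kb).

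T3 treatment was then compared with hypothyroidism in WT mice, with limma on log2(RPKM + 0.1), and a gene was called where its adjusted p was below 0.01 and its level changed by more than 1 on the log2 scale. Of the 822 genes starting in broad domains, 803 passed the filter on low values (0.1 RPKM in at least 4 of the 8 libraries). Of these, 104 were higher and 66 lower in hyperthyroid mice (13% and 8.22%), against 8.28% higher and 3.47% lower of all 13941 genes tested. Genes in shorter regions had 7.46% higher and 2.84% lower, and genes in no region had 11.2% and 4.70%. The region list pools both WT conditions, so that a place in a broad domain is not independent of T3. The part of this in the shares was not tested. The median log2 fold change was 0.09 in broad domains and 0.23 over all genes tested, so that relative to other genes the broad-domain genes stood lower. After scaling by the median of gene ratios, which moved the median of all genes by 0.22, the split in broad domains became 74 higher and 93 lower (44.3% of calls higher in place of 61.2%), and over all genes 758 higher and 674 lower. The directions below refer to RPKM as deposited, and the 16 genes named for the largest changes kept call and direction under the scaling.

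Calls were spread over domains. They came from 96 domains with a gene higher and 60 with a gene lower, and 3 domains held both. Domains of 25 kb or more had 10.3% of genes higher and 10.7% lower, while those of 15 to 25 kb had 14.2% and 7.09%. With a DR4 match of at least 11 of 12 bases in the domain, 29 of 184 genes were higher and 22 lower (15.8% and 12%). Without such a match, 75 of 619 were higher and 44 lower (12.1% and 7.11%), and domains with a match were slightly longer (median 21.0 against 20.5 kb). The median log2 fold change was 0.093 with and 0.085 without a match. In shorter regions, 12.2% were higher and 3.66% lower with a match, against 7.23% and 2.80% without. Higher shares with a match were thus not particular to broad domains.

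The largest increase was that of Cyp17a1, a steroid-synthesising cytochrome in a domain of 26.9 kb. It had 0.748, 0.491, 2.45 and 1.58 RPKM in hypothyroid and 315, 180, 120 and 235 RPKM in hyperthyroid WT libraries, a log2 fold change of 7.37 ± 0.46 (SE; adjusted p = 9.1e-06). Dio1, the deiodinase that forms T3 from thyroxine, had 0.719, 6.64, 57.7 and 8.98 RPKM in hypothyroid and 641, 533, 459 and 544 RPKM in hyperthyroid libraries (log2 fold change 6.20 ± 1.02, adjusted p = 0.00118). The groups did not overlap for either gene, as the choice of these genes required, and hypothyroid WT replicate 3 was the highest hypothyroid library for both. The same library was highest for all 8 genes with the largest increase and for 69 of the 104 higher genes. Without it, 108 genes were higher and 63 lower.

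Transporter and signalling genes were also among these 8, which were chosen with no overlap between groups as a condition. Slc22a7, an organic anion transporter, rose from between 2.27 and 33.1 RPKM to between 166 and 308 RPKM. Tlcd2, a membrane lipid regulator, rose from 11.8 ± 5.14 to 170 ± 34.0 RPKM, and the mitochondrial carrier Slc25a45 from 3.52 ± 1.90 to 37.7 ± 1.81 RPKM. Stat5a, a transducer of growth hormone signals, had 1.11, 1.48, 2.13 and 1.30 RPKM in hypothyroid and 16.1, 16.7, 14.7 and 15.7 RPKM in hyperthyroid libraries (log2 fold change 3.34 ± 0.17, adjusted p = 4.07e-06). Stat5b in the same domain of 54.7 kb rose as well, by 1.76 ± 0.11 on the log2 scale (adjusted p = 9.95e-06), from 7.89 ± 0.988 to 26.9 ± 2.96 RPKM. Mup16 rose from 49.5 ± 68.0 to 1073 ± 246 RPKM, and reads of the near-identical major urinary protein genes may have been divided among them. Mir1903 rose from 4.23 ± 4.24 to 27.8 ± 4.88 RPKM, but this microRNA lies in Nrp1, a coreceptor of semaphorins and VEGF that starts in the same domain and rose by 2.28 ± 0.23 (adjusted p = 9.04e-05), and reads of both cannot be told apart.

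The decreases were led by Abcc3, an exporter of bile acids and conjugates in a domain of 25.8 kb. It had 162, 115, 114 and 149 RPKM in hypothyroid and 4.46, 2.79, 4.73 and 5.75 RPKM in hyperthyroid libraries, a log2 fold change of -4.92 ± 0.21 (adjusted p = 2.38e-06). Uox, the urate oxidase of rodents, fell from 1790 ± 297 to 223 ± 42.2 RPKM (-3.01 ± 0.16, adjusted p = 5.21e-06). Cyp2e1 had 5950, 4641, 4873 and 4976 RPKM against 795, 1082, 1082 and 833 RPKM (-2.44 ± 0.16, adjusted p = 1.07e-05). Hyperthyroid libraries lay below all hypothyroid libraries for Abcc3, Uox and Cyp2e1, as the choice of these genes required. At lower levels, Mapk15, an atypical MAP kinase, fell from 9.53 ± 1.78 to 0.639 ± 0.168 RPKM and Il17rb, a cytokine receptor chain, from 7.07 ± 2.27 to 0.868 ± 0.139 RPKM.

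**Figure D4:**
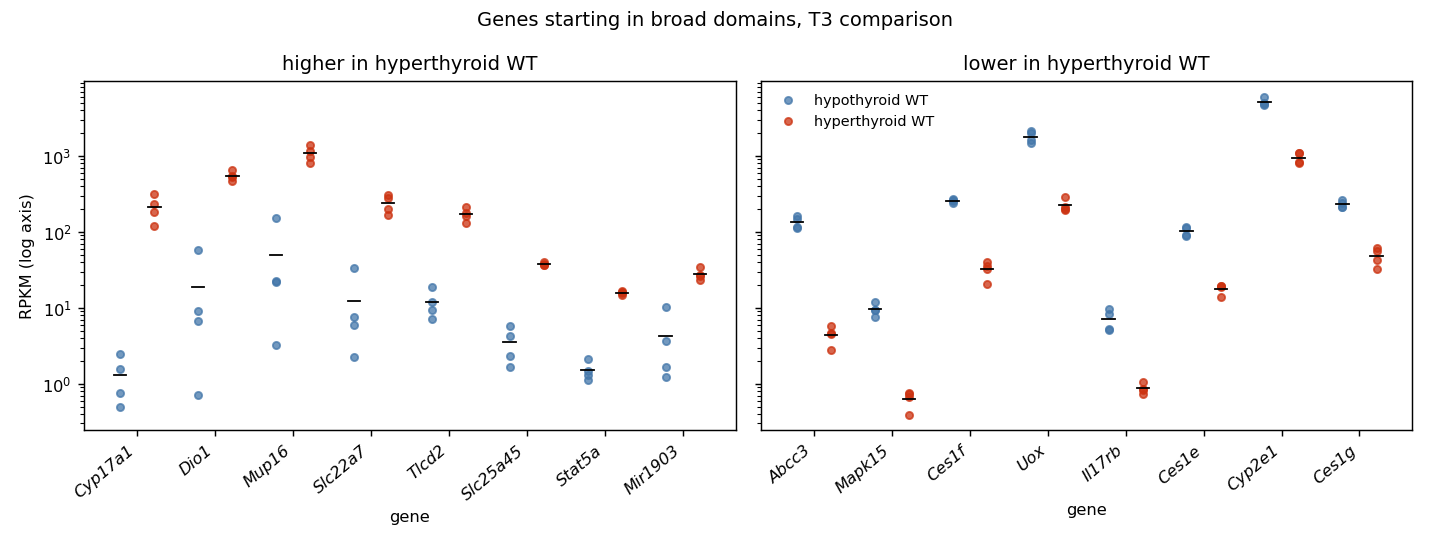
RPKM (logarithmic axis) in each hypothyroid WT (blue) and hyperthyroid WT (red) library for the 8 genes with the largest increase (left) and the 8 with the largest decrease (right) among genes starting in broad domains; points are libraries and black bars are group means. Separate groups were a condition for choosing these genes, and hypothyroid values of Dio1 and Mup16 spread widely, from 0.719 to 57.7 RPKM and from 3.25 to 151 RPKM.

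The remaining genes with large decreases belonged to the carboxylesterase chain of domains. Ces1f fell from 256.1 ± 13.5 to 32.2 ± 8.34 RPKM, Ces1e from 101.2 ± 14.9 to 17.9 ± 2.79 RPKM and Ces1g from 230 ± 25 to 47.8 ± 13.2 RPKM, with log2 fold changes of -3.03, -2.49 and -2.31. Ces1c in a neighbouring domain was at 751 ± 90.0 RPKM in hypothyroid and 1195 ± 57.1 RPKM in hyperthyroid mice (0.68 ± 0.11, adjusted p = 0.00129, under the fold threshold), and Ces1b at 121 ± 13 and 126 ± 12.4 RPKM. Neighbouring domains of the chain thus held genes with values in opposite directions, although reads of similar paralogues may have been divided.

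Of the 12 classic thyroid hormone genes in broad domains 6 were higher and none was lower, against 13 higher and 1 lower of all 31 on the list. Thrsp, a regulator of lipogenesis, had 209, 490, 352 and 237 RPKM in hypothyroid and 2360, 1336, 847 and 1844 RPKM in hyperthyroid libraries (2.29 ± 0.35, adjusted p = 0.000813). Klf9 (1.17 ± 0.21, but 0.94 under scaling by the median of gene ratios), Mlxipl (1.12 ± 0.13), Dio1 and Cyp17a1 were also among those higher. Scd1, a fatty acid desaturase, was at 933 ± 97.6 and 434 ± 294 RPKM (adjusted p = 0.0311), and Pck1, Acly, Cpt1a and Rxra did not pass either, although Acly passed as lower without hyperthyroid WT replicate 1 (-1.002).

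Among metabolic enzymes, 4 of the 21 in broad domains were lower and none higher, against 8.22% lower and 13% higher of all broad-domain genes, and 4 lower and 2 higher of all 30 enzymes on the list. The lower enzymes included Gnmt, which regulates methyl groups (2107 ± 316 to 769 ± 195 RPKM), and the tyrosine-degrading Hpd (1378 ± 143 to 683 ± 103.4 RPKM). Hpd was near the fold threshold, at -1.02, and was under it without hyperthyroid WT replicate 3 (-0.91), hypothyroid WT replicate 1 (-0.99) or hypothyroid WT replicate 4 (-0.96). Of the 24 plasma proteins 3 were lower and 1 higher, and 6 were lower and 2 higher of all 44 on the list. Ttr, the thyroxine carrier, fell from 4411 ± 644 to 1502 ± 230 RPKM (-1.55 ± 0.16, adjusted p = 0.000108) and Apoa2 from 9397 ± 1529 to 3587 ± 555 RPKM.

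Alb was lower in all hyperthyroid libraries, with 14947, 13257, 11609 and 17486 RPKM (-1.16 ± 0.28, adjusted p = 0.00818). The call was kept when hyperthyroid WT replicate 4 was left out and lost without any other library. Alb did not pass without any of hyperthyroid WT replicates 1, 2 and 3 (adjusted p = 0.0151, 0.0176 and 0.0159) or hypothyroid WT replicates 1, 2, 3 and 4 (0.0245, 0.0250, 0.0191 and 0.0289). It also did not pass after scaling by the median of gene ratios (-1.39, adjusted p = 0.0224) or with no filter on low values (adjusted p = 0.168). Fga, Fgb and Fgg in their common domain were at 1589 ± 699, 2251 ± 757 and 1888 ± 844 RPKM in hyperthyroid mice (adjusted p = 0.0452, 0.0272 and 0.0715), with hyperthyroid WT replicate 2 highest for each. Cebpb, in the chain on chromosome 2, was highest in the same library (125 RPKM against 46.2 to 56.7 RPKM in the other hyperthyroid libraries).

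Of 21 hepatocyte transcription factors in broad domains, 2 were higher and 2 lower, set against 13% and 8.22% of all broad-domain genes. Cebpb (2.31 ± 0.29, adjusted p = 0.000271) and Mlxipl were higher and Nr1i3 (-1.97 ± 0.15, adjusted p = 2.34e-05) and Nr0b2 (-1.11 ± 0.21, adjusted p = 0.00251) lower, but Nr0b2 was at -0.89 without hyperthyroid WT replicate 1. Cebpa (155 ± 33.0 and 116 ± 30.3 RPKM) and Xbp1 (91.7 ± 13.6 and 150 ± 42.0 RPKM) did not pass. Under scaling by the median of gene ratios, Mlxipl (0.88), Shb (0.99) and Ttpal (0.97) fell below the fold threshold, and Txnip (-1.14), Acly (-1.04) and Apoc1 (-1.03) passed as lower. Sin3a, a scaffold of deacetylase complexes, was at 6.12 ± 0.202 and 6.70 ± 0.901 RPKM (0.12 ± 0.10).

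The clock genes Dbp and Per2, which cycle daily in liver, were lower (-1.56 ± 0.35, adjusted p = 0.00544, and -1.23 ± 0.28, adjusted p = 0.00566). Dbp lost the call without hyperthyroid WT replicate 1 (adjusted p = 0.0110) or hypothyroid WT replicates 2, 3 or 4 (0.0122, 0.0154 and 0.0182). Per2 lost it without hyperthyroid WT replicate 2 (log2 fold change -0.94) or replicate 3 (adjusted p = 0.0144) and without hypothyroid WT replicates 1, 2 or 4 (0.0162, 0.0176 and 0.0143). None of the 6 stress genes in broad domains passed, against 10 higher and none lower of all 27 on the list, with Nfkbia at 0.71 ± 0.17 and Txnip at -0.91 ± 0.18, but Txnip passed without hypothyroid WT replicate 2 (-1.004, adjusted p = 0.00352) and after scaling by the median of gene ratios (-1.14, adjusted p = 0.00128).

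C1qa and C1qb, complement genes of Kupffer cells that share a domain of 16.8 kb, rose from 17.4 ± 2.69 to 45.3 ± 5.40 RPKM and from 15.9 ± 2.49 to 48.8 ± 6.04 RPKM (1.37 ± 0.12 and 1.62 ± 0.13). Fcer1g, in the domain of Nr1i3 and Apoa2, rose from 4.55 ± 0.473 to 11.9 ± 2.26 RPKM (1.36 ± 0.14, adjusted p = 8.16e-05) while Nr1i3 (173 ± 25.5 to 44.4 ± 8.81 RPKM), Apoa2 and Tomm40l (-1.75 ± 0.15) fell. This domain therefore held genes called in opposite directions. The summed Kupffer cell markers given above moved with C1qa, C1qb and Fcer1g, and the part of that cell type was not tested.

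Genes with an exact DR4 match in their domain were mixed. Abcg5, a sterol exporter, rose from 42.2 ± 5.50 to 110 ± 10.9 RPKM (1.38 ± 0.11, adjusted p = 2.95e-05) and Ttpal from 3.99 ± 0.782 to 9.25 ± 1.29 RPKM (1.203 ± 0.16, adjusted p = 0.000326). Arid5b, a chromatin cofactor, fell from 12.2 ± 2.55 to 5.59 ± 1.36 RPKM (-1.13 ± 0.19, adjusted p = 0.00133), but was at -0.98 without hyperthyroid WT replicate 1 and -0.99 without hypothyroid WT replicate 1. Ubr2 (0.70), Sdsl (0.36), Paqr7 (0.11) and Sds (-0.57) did not pass the thresholds. Among the other genes of the 10 longest domains, Shb rose to 22.8, 38.0, 29.2 and 27.5 RPKM (1.23 ± 0.15, adjusted p = 0.00023), and Mtss1 (-0.16 ± 0.08), Abca1 (0.31 ± 0.12), Plrg1 (0.43 ± 0.09), Eif4enif1 (0.48 ± 0.09), Sfi1 (0.09 ± 0.12) and Pisd-ps1 (0.29 ± 0.12) did not pass.

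L-NCOR1ΔID mice were compared with WT mice, both hypothyroid, at an adjusted p under 0.01. The level of Ncor1 itself was 14.7 ± 0.665 RPKM in hypothyroid WT against 12.97 ± 0.844 RPKM with the mutation (adjusted p = 0.204). The mutation removes part of the gene, so that a value over the whole transcript does not check the genotype. Of the 822 genes in broad domains, 802 were tested, and 10 were higher and 9 lower (1.25% and 1.12%). Over all 13790 genes tested, 0.725% were higher and 0.544% lower. Genes in shorter regions had 0.761% higher and 0.357% lower, and genes in no region had 0.333% and 1.05%. Among shorter regions, those of 8 to 15 kb had 1.63% higher and 0.501% lower. A raised share in either direction was thus also found outside broad domains. The median log2 fold change was -0.01 in broad domains and 0.03 over all genes tested.

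These counts are small, and they fell or stayed the same whichever library was left out. Such fits also hold fewer libraries, so that dependence on a particular library cannot be told apart from lower power. Leaving out hypothyroid WT replicate 4 gave 5 higher and 5 lower, leaving out hypothyroid WT replicate 3 gave 7 and 5, and leaving out L-NCOR1ΔID replicate 3 gave 6 and 6. The calls came from 18 domains, none of which held genes called in both directions.

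The largest increase was that of Scd1. It had 977, 1046, 828 and 881 RPKM in hypothyroid WT and 8000, 3745, 6006 and 4669 RPKM in L-NCOR1ΔID libraries (2.53 ± 0.23, adjusted p = 0.000693). In hyperthyroid WT mice it was at 654, 180, 181 and 720 RPKM, below every hypothyroid WT library. Acacb, the mitochondrial acetyl-CoA carboxylase, had 6.78, 11.1, 10.7 and 10.8 RPKM in WT and 35.5, 18.4, 28.1 and 30.6 RPKM in L-NCOR1ΔID (1.49 ± 0.22, adjusted p = 0.00791). Its adjusted p was between 0.0160 and 0.0255 without any single library other than L-NCOR1ΔID replicate 2. For T3, Acacb was also higher (1.18 ± 0.25, adjusted p = 0.00453), but not without hyperthyroid WT replicates 1 (0.98) or 4 (adjusted p = 0.0129) or hypothyroid WT replicates 1 or 4 (0.0118 and 0.0106), nor after scaling by the median of gene ratios (0.94, adjusted p = 0.0212).

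Gstt3, a glutathione transferase, rose from 40.3 ± 9.27 to 113 ± 15.3 RPKM (1.504 ± 0.16, adjusted p = 0.00164), Cebpb from 12.8 ± 2.10 to 32.2 ± 5.49 RPKM (1.32 ± 0.15, adjusted p = 0.00259) and Papss2, which makes the sulfate donor PAPS, from 39.9 ± 6.05 to 98.0 ± 9.16 RPKM (1.30 ± 0.11, adjusted p = 0.000498). Cebpb did not pass without L-NCOR1ΔID replicate 3 (adjusted p = 0.0118) or hypothyroid WT replicate 4 (0.0122). In hyperthyroid WT mice Gstt3 was at 138 ± 53.9 RPKM, Cebpb at 69.2 ± 37.2 RPKM and Papss2 at 235 ± 61.5 RPKM. Zmiz1 in the domain of 73.3 kb was also called (5.77 ± 0.587 to 8.87 ± 0.498 RPKM, adjusted p = 0.00796), but its adjusted p was between 0.0163 and 0.0299 without any single library.

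The decreases included the neighbours Nr1i3 and Tomm40l. Nr1i3 had 201, 151, 151 and 188 RPKM in hypothyroid WT, 87.8, 84.1, 73.5 and 81.3 RPKM in L-NCOR1ΔID and 56.5, 37.2, 38.5 and 45.4 RPKM in hyperthyroid WT libraries (-1.07 ± 0.11 for L-NCOR1ΔID, adjusted p = 0.00145). Tomm40l, an outer mitochondrial membrane protein, fell from 78.2 ± 11.9 to 35.3 ± 2.74 RPKM (-1.14 ± 0.11), whereas Apoa2 in the same domain was at 6985 ± 672 RPKM (adjusted p = 0.297). Atp1b1, a subunit of the sodium pump, had 66.8, 79.1, 89.9 and 82.6 RPKM in WT and 33.6, 36.6, 34.9 and 29.6 RPKM in L-NCOR1ΔID libraries (-1.24 ± 0.10, adjusted p = 0.000498), with 73.5 ± 20.9 RPKM in hyperthyroid WT mice.

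Slc17a8, a vesicular glutamate transporter, fell from 7.89 ± 1.15 to 2.17 ± 0.784 RPKM (-1.86 ± 0.21, adjusted p = 0.00231) and Ocel1 from 9.86 ± 0.888 to 4.18 ± 0.950 RPKM (-1.24 ± 0.15, adjusted p = 0.00283). Slc17a8 did not pass without L-NCOR1ΔID replicate 3 or hypothyroid WT replicates 3 or 4 (adjusted p = 0.0108, 0.0107 and 0.0117). Ocel1 did not pass without L-NCOR1ΔID replicate 3 or hypothyroid WT replicates 2, 3 or 4 (0.0122, 0.0134, 0.0128 and 0.0133). Nr1h4, the bile acid receptor FXR, was the other hepatocyte transcription factor called lower, at 60.6 ± 1.72 and 39.3 ± 1.59 RPKM (-0.62 ± 0.06, adjusted p = 0.000876).

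**Figure D5:**
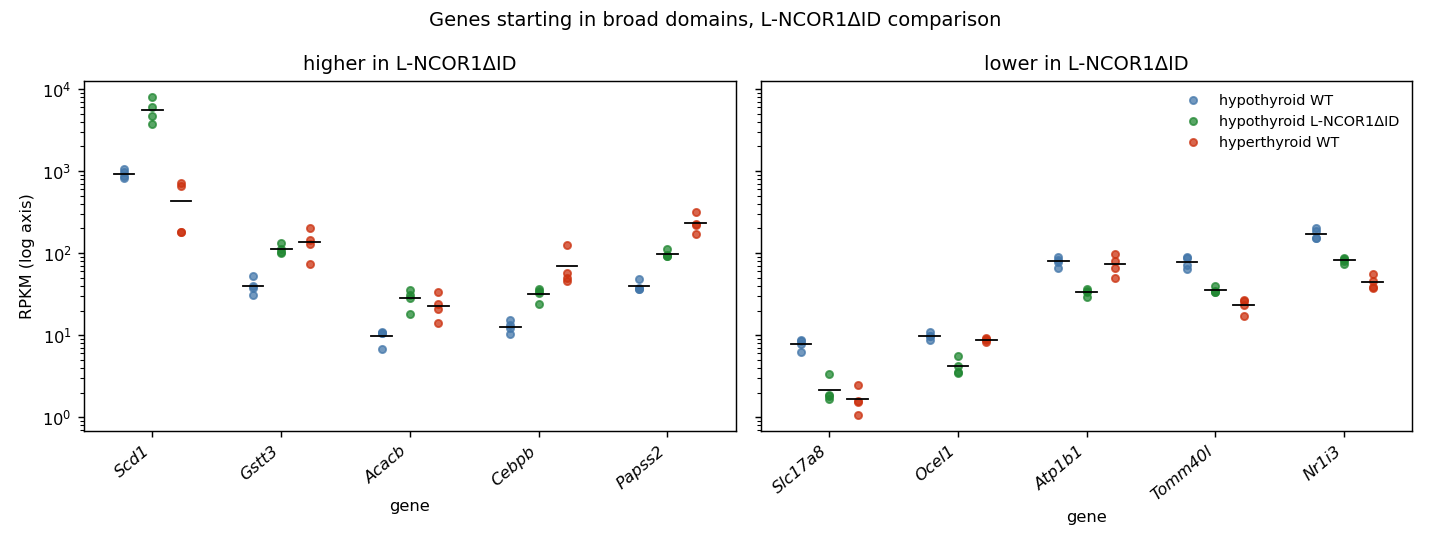
RPKM (logarithmic axis) in each library of hypothyroid WT (blue), hypothyroid L-NCOR1ΔID (green) and hyperthyroid WT (red) for the 5 genes with the largest increase (left) and the 5 with the largest decrease (right) in L-NCOR1ΔID among genes starting in broad domains; points are libraries and black bars are group means. Separate blue and green points were a condition for choosing these genes, and Scd1 has its red points below the blue.

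Several genes with large increases for T3 did not pass in L-NCOR1ΔID mice. Dio1 was at 0.567, 0.591, 20.9 and 12.1 RPKM in L-NCOR1ΔID libraries, which overlapped with hypothyroid WT. Thrsp was at 1060, 454, 1081 and 779 RPKM (1.39 ± 0.34, adjusted p = 0.0542), overlapping with hypothyroid WT, and Cyp17a1 at 2.41, 32.4, 7.70 and 14.3 RPKM (3.01 ± 0.75, adjusted p = 0.0583). Stat5a was at 2.28 ± 0.486 RPKM (adjusted p = 0.169) and Slc22a7 at 2.58 ± 2.67 RPKM (adjusted p = 0.236). A p over the threshold does not show that these levels are alike.

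Side by side over both comparisons, 7 genes in broad domains were called higher in each (Papss2, Cebpb, Shmt1, Abcg5, Acacb, Gstt3 and Gldc) and 4 lower in each (Tomm40l, Nr1i3, Tedc2 and Slc17a8). Since both comparisons use the same hypothyroid WT libraries, such shared directions are not independent. Shmt1 and Gldc belong to folate and glycine metabolism. Shmt1 was at 55.6 ± 6.13, 132 ± 21.3 and 121 ± 0.757 RPKM and Gldc at 29.8 ± 2.91, 83.2 ± 6.77 and 64.8 ± 13.8 RPKM in hypothyroid WT, hyperthyroid WT and L-NCOR1ΔID mice. For L-NCOR1ΔID, Gldc and Tedc2 each lost the call in 6 of the 8 fits without a single library (adjusted p = 0.0150 to 0.0198 and 0.0142 to 0.0336).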

How the data were processed

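Liver RNA-seq of 12 libraries (3 groups of 4) and a list of H3K9Ac and H3K27Ac ChIP-seq regions were used. The authors deposited RPKM for each RefSeq transcript, and per the labels STAR, HOMER, DESeq2 and mm9 were used, with versions not given in the sources used here. The authors deposited the regions as mm9 positions with no score or read number, pooled over both marks and both WT conditions. RPKM holds no read numbers, so absolute depth is unknown and only relative depth was derived.

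Regions of 15000 bp or more were kept. Gene starts came from GENCODE M1 on NCBIM37 (mm9), as the outermost annotated start of each gene, and the first listed transcript stood for its RPKM. Groups were compared with limma 3.58.1 (R 4.3.3) with a variance trend on log2(RPKM + 0.1), for genes that reached 0.1 RPKM in 4 or more libraries of a comparison, with Benjamini-Hochberg adjustment. A fold change on this scale understates that of low genes. Calls needed an adjusted p under 0.01 and, for T3, a log2 fold change above 1 in size. Other steps used Python 3.11.15 with numpy 2.4.6, pandas 2.3.3, scipy 1.17.1 and matplotlib 3.10.9, and the test was tested on simulated data.

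Named were the 10 longest domains and genes starting in them, the 10 genes with the highest mean RPKM, the 8 (T3) or 5 (L-NCOR1ΔID) genes with the largest change each way (at least 1 RPKM in the higher group, no overlap between groups), examples from fixed lists, and Thrsp, Dio1, Pdp2 and Thrb. Other genes were named after their values were seen, such as neighbours in a domain and genes beside a DR4 match. The members and lists were chosen with earlier results of these data known. Alternatives were other length limits, pseudocounts, filters, scalings, transcripts, thresholds, a replicate block and leaving out each library. The 44 ChIP libraries were not analysed here one by one.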

Additional observations from a re-analysis of the deposited data

Results flagged for a closer look

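In 23 of 315 groups of 4 libraries (7.30%) a library lay farther from the rest than Dixon's 95% limit, where chance gives about 1 in 20. None of these was weighed.

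Hypothyroid WT replicate 3 was high for Dio1 (57.7 RPKM), Mup16 (151 RPKM) and Papss2 (49.0 RPKM), hypothyroid WT replicate 1 stood apart for Acacb (6.78 RPKM), Arid5b (16.02 RPKM) and Ces1b (102 RPKM), and hypothyroid WT replicate 4 stood apart for Txnip (67.4 RPKM) and Rps16 (28.0 RPKM). In hyperthyroid WT, replicate 2 stood apart for Cebpb (125 RPKM), Nfkbia (65.1 RPKM), C1qa (37.2 RPKM) and Paqr7 (6.52 RPKM), replicate 1 for Ces1e (13.7 RPKM) and Mlxipl (193 RPKM), and replicate 4 for Ttr (1843 RPKM) and Sdsl (13.2 RPKM). In replicate 3 of that group Gldc stood apart (73.2 RPKM), and genes starting in broad domains made up 35.5% of summed RPKM. In L-NCOR1ΔID, replicate 1 stood apart for Cyp2e1 (4168 RPKM) and Slc17a8 (3.34 RPKM), replicate 2 for Papss2 (112 RPKM) and Gnmt (3053 RPKM), and replicate 4 for Mup16 (92.8 RPKM).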

How the results depend on the processing

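The number of broad domains was 1472 at a lower length limit and 457 at 20 kb. The share with a gene start was 64.4% for protein-coding genes only and 75.7% at 20 kb. The median in hypothyroid WT was 25.4 RPKM at 20 kb, 17.0 RPKM at 10 kb, 24.5 RPKM for protein-coding genes and, chosen after seeing the data, 21.4 RPKM with any annotated transcript start. For T3 the median log2 fold change was -0.14 after scaling by the median of gene ratios, and at 20 kb there were 51 genes higher, 41 lower and a median of 0.0081. Leaving out single libraries gave 93 to 108 higher and 58 to 68 lower. For L-NCOR1ΔID, the fit of all 12 libraries gave 18 lower, an adjusted p under 0.05 gave 23 higher and 28 lower, and leaving out single libraries gave 5 to 9 in each direction. Of the broad-domain genes named, 36 of 47 called for T3 and 6 of 16 called for L-NCOR1ΔID were called in every alternative run, and no called gene changed direction. The causes were not tested.

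Same-numbered libraries showed no steady pairing, as their deviations correlated at -0.09 to 0.10 for T3 and -0.15 to 0.23 for L-NCOR1ΔID. Differently numbered libraries of the L-NCOR1ΔID comparison reached -0.27 and 0.26. Whether libraries share a batch across groups under other numbers was not tested. With the replicate block, 100 genes were higher and 62 lower for T3, and 3 higher and 4 lower for L-NCOR1ΔID.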
